A study of Mus musculus with 26 samples.

Results

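Of the 13 control retinal cells of this single-cell array series (WT), 7 carried transcript of Uhrf1 among the brightest signals of their own array, and these 7 cells were compared with the other 6 WT cells. A cell counted as Uhrf1-positive when the signal of the brighter of the 2 Uhrf1 probe sets was at or above the 90th percentile of its own array. The series holds 26 cells, 13 WT and 13 N1-CKO. All came from retinas homozygous for a floxed Notch1 allele on a C57BL/6 background, electroporated in the living pup on postnatal day 0 and harvested on day 3. WT cells received CAG:GFP alone, so they carry the floxed but not recombined allele, and N1-CKO cells received CAG:Cre with the Cre-dependent reporter CALNL-GFP. The CAG promoter is active in most cell types, and GFP-positive cells of either kind were picked by eye, so that neither group is a sorted cell type. Nothing in the labels ties a cell to an animal or litter, so cells could not be counted as independent replicates. Each class stands as 1 sample, no test was made, and SDs describe the spread between cells.

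Uhrf1 binds hemimethylated DNA behind the replication fork and recruits Dnmt1, the maintenance DNA methyltransferase, so that methylation is copied to the new strand. Its gene is activated by E2F factors at the entry into S phase, and it is widely used as a mark of dividing cells. In the newborn mouse retina, progenitors still cycle while rods, bipolar cells, amacrine cells and Müller glia leave the cycle.

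Uhrf1 signal in the 7 positive cells was 3909 at the lowest, 6775 at the median and 14753 at the highest. In the other 6 WT cells it was 2.17 at the lowest, 37.2 at the median and 748 at the highest. These values chose the classes and are given as a description. Just inside the limit was WT cell 2, whose Uhrf1 lay at percentile 93.4 of its array, and just outside was WT cell 12 at percentile 89.5. Uhrf1 was detected in 53.8% of WT cells and in no N1-CKO cell (0 of 13). Since cells are not independent replicates, these shares describe the picked cells and were not compared by a test. The dimmer Uhrf1 probe set passed the limit in WT cells 8, 9 and 11, of which cell 9 (percentile 93.1) counted as negative by the brighter one. Results with large counts are therefore also given without WT cells 9 and 12, a choice made after seeing the data.

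**Figure D1:**
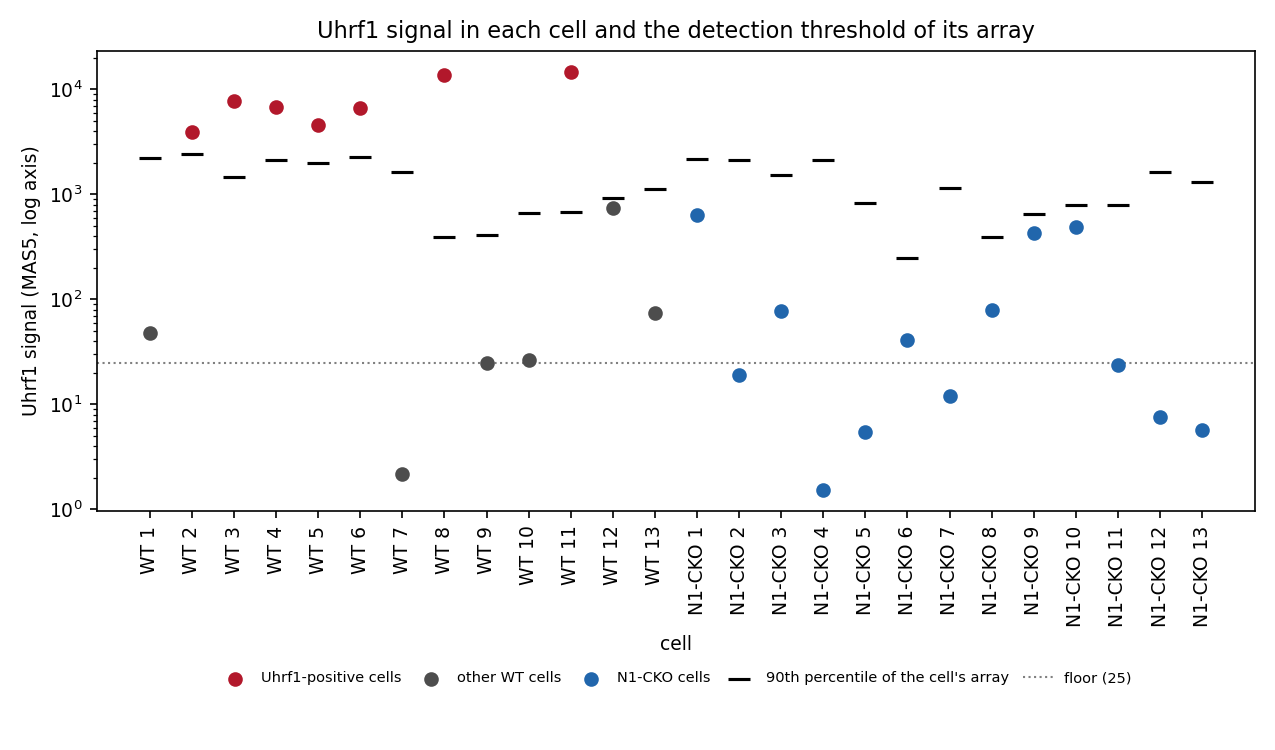
Uhrf1 signal (MAS5 intensity, log axis) in each of the 26 cells, with the 90th percentile of the cell's own array as a black dash and the floor of 25 as a dotted line. The 7 Uhrf1-positive WT cells lie between 3909 and 14753, and the other WT and all N1-CKO cells lie below their array's dash.

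The arrays of the classes differed in some technical measures. Of the 7 Uhrf1-positive cells 2 (WT cells 8 and 11), and of the other 6 cells 3 (WT cells 9, 10 and 12), lay in the set of arrays with a high 18S ribosomal RNA control. At a common signal threshold of 1252, the median number of bright probe sets was 5302 in positive cells (range 3569 to 6014), and in the others it was 4289.5 (range 2558 to 6212). The Gapdh ratio (3' over 5' control signal), a measure that grows as cDNA gets shorter, had medians of 1.70 (1.40 to 3.24) and 2.12 (1.42 to 3.26). The same ratio for Actb had medians of 3.29 (1.94 to 54.8) and 3.90 (1.41 to 21.2). It was highest in WT cells 2 (54.8) and 4 (31.6), both Uhrf1-positive and with Gapdh ratios below 3. No alternative below left out cells by the Actb ratio. Over the 78 pairs of WT cells, Pearson's r of log2 signals was 0.29 at the lowest and 0.63 at the highest, taken across probe sets that are not independent replicates. The part of these differences in the results below was not tested, and list medians within each 18S set are given where they changed sign.

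The S phase reading of the Uhrf1 class was checked against Mcm3 and Lig1, and neither was higher in it. Mcm3, a subunit of the replicative helicase, had log2 signals from 6.38 to 13.52 (median 9.44) in Uhrf1-positive cells and from 4.64 to 13.94 (median 12.05) in the others. It was detected in 3 of 7 and 4 of 6 cells. Lig1, the ligase that joins Okazaki fragments, ranged from 4.64 to 13.08 (median 11.34) and from 4.64 to 14.74 (median 11.20), and was detected in 4 of 7 and 4 of 6 cells. The classes overlapped fully for both genes. Mean log2 signal differed by -1.35 for Mcm3 and by -0.82 for Lig1 (positive minus other), less than the SD over cells in either class. Without WT cell 12 the difference was 0.09 for Lig1. The class is therefore named by Uhrf1 alone and not as cells in S phase.

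The promoters of 4 genes on which the comparison turns are shown to set their cell cycle motifs side by side. Uhrf1 defines the classes, Cdc20 and Cenpa were among the genes with the highest differences, and Mcm3 was not higher. Each is the stretch of 250 bases before the RefSeq start in build GRCm38.p6, printed 5' to 3' on the gene's own strand, with motif matches in capitals. The Uhrf1 stretch is chr17:56303087-56303336 (plus strand, the first of 2 listed starts). Those of Cdc20 and Mcm3 are chr4:118437344-118437593 and chr1:20820313-20820562 (both minus strand), and that of Cenpa is chr5:30666636-30666885 (plus strand).
Uhrf1: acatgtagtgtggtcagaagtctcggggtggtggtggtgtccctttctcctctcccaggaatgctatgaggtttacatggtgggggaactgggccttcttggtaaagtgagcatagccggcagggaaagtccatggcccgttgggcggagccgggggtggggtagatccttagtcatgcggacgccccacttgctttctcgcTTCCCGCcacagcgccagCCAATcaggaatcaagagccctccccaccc
Cdc20: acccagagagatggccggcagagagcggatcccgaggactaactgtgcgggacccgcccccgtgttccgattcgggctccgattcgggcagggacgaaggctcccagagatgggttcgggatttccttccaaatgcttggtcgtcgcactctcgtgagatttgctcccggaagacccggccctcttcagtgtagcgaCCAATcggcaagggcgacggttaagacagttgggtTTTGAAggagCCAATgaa
Cenpa: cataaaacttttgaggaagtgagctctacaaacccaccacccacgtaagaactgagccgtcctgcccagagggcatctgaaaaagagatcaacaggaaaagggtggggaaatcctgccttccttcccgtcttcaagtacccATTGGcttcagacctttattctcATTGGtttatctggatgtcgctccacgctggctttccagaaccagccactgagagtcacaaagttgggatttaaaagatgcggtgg
Mcm3: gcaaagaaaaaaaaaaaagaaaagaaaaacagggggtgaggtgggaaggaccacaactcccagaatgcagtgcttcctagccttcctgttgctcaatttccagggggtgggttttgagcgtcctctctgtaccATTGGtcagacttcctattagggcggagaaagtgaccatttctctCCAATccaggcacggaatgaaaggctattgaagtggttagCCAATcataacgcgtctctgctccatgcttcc

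Motifs were searched on both strands. For the E2F type the letters were TTCCCGC. Its variants TTTGGCG also counted, as did its variant TTTCGCG. A cell cycle homology region (CHR) was matched by the letters TTTGAA. The letters TTCGAA were allowed there as well. The last motif was the CCAAT box, spelled as its name. No match overlapped another in the stretches shown. Uhrf1 had 1 E2F-type match, 48 bases before the start, and a CCAAT box at 30 bases. Cdc20 had a CHR match at 18 bases and CCAAT boxes at 53 and 8 bases. Cenpa had CCAAT boxes at 109 and 86 bases, and Mcm3 at 117, 72 and 32 bases. Of all 27025 genes with a listed promoter, 6.38% had an E2F-type match, 19.6% a CHR match and 37.5% a CCAAT box in a stretch of this length. A gene with several starts counted when any of them matched.

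Across the genes used, somewhat more had a higher than a lower mean in Uhrf1-positive cells. Detection in a cell meant a signal at or above the 90th percentile of its array, and 6328 genes detected in at least 2 of the 13 WT cells were compared, without Uhrf1. Signals below 25 (log2 of 4.64) were raised to 25, and values at this floor have no order. A difference is the mean log2 signal of Uhrf1-positive cells minus that of the other WT cells, so it mixes how many cells showed a transcript with its level in them. The median difference was 0.30, but -0.10 among cells of the high 18S set and -0.06 over all 18192 genes without the detection filter, and 56.3% of genes had a higher mean in Uhrf1-positive cells. Differences of at least 3, a factor of 8, were reached by 434 genes in the higher direction (6.86%) and by 215 in the lower direction (3.4%). The numbers were 499 and 364 without WT cells 9 and 12, and 660 genes were higher without WT cell 1. Every other probe set had the opposite sign for Fanci, Arglu1, Rundc3a, Dbf4, Umps, Slbp, E2f8, Ccnd3, Ccnd1, Cdkn1a, Hmgb2, Id2, Ebf3, Map2 and Actb among the genes named by rule below. Of genes used with a listed promoter (5223), 13.5% had an E2F-type match, 14.4% a CHR match and 41.8% a CCAAT box. The shares were 15.8%, 19.3% and 46.7% among 368 genes higher by at least 3, and 6.9%, 12.1% and 33.9% among 174 lower ones.

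Genes of G2/M and mitosis had the highest median difference of the lists with more than 1 used gene. Of 45 listed genes, 44 were measured and 40 were used. Of these 39 had higher means in Uhrf1-positive cells, against 56.3% of all genes, and 20 were higher by at least 3, against 6.86% (10.3% in either direction). None was lower by at least 3, and the median difference was 3.01. The number of members detected per Uhrf1-positive cell was 15 at the lowest, 32 at the median and 39 at the highest. In the other WT cells it was 4, 12.5 and 27. The classes overlapped, since WT cells 1, 10 and 13 had 27, 20 and 17 members detected without Uhrf1, and WT cells 6 and 11 had 15 and 16 with it. The mean log2 signal over the list's members was 11.25 ± 2.06 (SD, 7 cells) in Uhrf1-positive and 8.26 ± 2.16 (SD, 6 cells) in other WT cells. Of the 35 members with a listed promoter, 17 had a CHR match (48.6%), 29 a CCAAT box (82.9%) and 4 an E2F-type match (11.4%).

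Among members of the mitotic list, the 4 highest differences were those of Cenpa, Cdc20, Cdca8 and Cks2. Cenpa, the histone variant that marks centromeres, ranged from 10.43 to 15.57 (median 13.38) in Uhrf1-positive cells and from 4.64 to 12.39 (median 4.64) in the others. It was detected in 6 of 7 and 2 of 6 cells and differed by 5.71, but 1 of its 2 other probe sets had the opposite sign. Cdc20, the activator of the anaphase-promoting complex, ranged from 12.03 to 16.32 (median 13.90) and from 4.64 to 14.13 (median 8.41), with 7 of 7 and 3 of 6 cells and a difference of 5.23. Every Uhrf1-positive cell was thus bright for Cdc20, and WT cell 1 was as bright without Uhrf1. Cdca8, a chromosomal passenger protein, had 14.05 ± 0.72 against 9.11 ± 4.38 and was detected in 7 and 2 cells. The kinase subunit Cks2 (7 and 3 cells) differed by 4.90.

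Among members named after their values were seen, the broad proliferation marker Mki67 and the mitotic kinases also had higher means. Mki67, the proliferation antigen, was detected in 7 of 7 Uhrf1-positive cells (12.20 to 15.29, median 14.32) and in 4 of 6 others (4.64 to 13.76, median 12.93). Its mean differed by 3.10. Top2a, the topoisomerase that disentangles chromosomes, was detected in 7 and 3 cells (difference 4.42), the mitotic kinase Cdk1 in 5 and 2 (4.21) and its cyclin Ccnb2 in 5 and 1 (4.60). Plk1 (5 and 1 cells), a kinase of mitotic entry, differed by 2.90. At the other end, the GTPase regulator Arhgap11a (7 and 5 cells, difference 0.23) and the chromatin protein Hmgb2 (5 and 3 cells, -0.28) hardly differed. Both were bright in some cells of either class. The list's median was 2.20 within the high 18S set (2 against 3 cells), 3.05 within the low 18S set (5 against 3 cells) and 2.55 without WT cells 9 and 12. It was 0.86 when Uhrf1 had to reach the 95th percentile (5 against 8 cells).

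**Figure D2:**
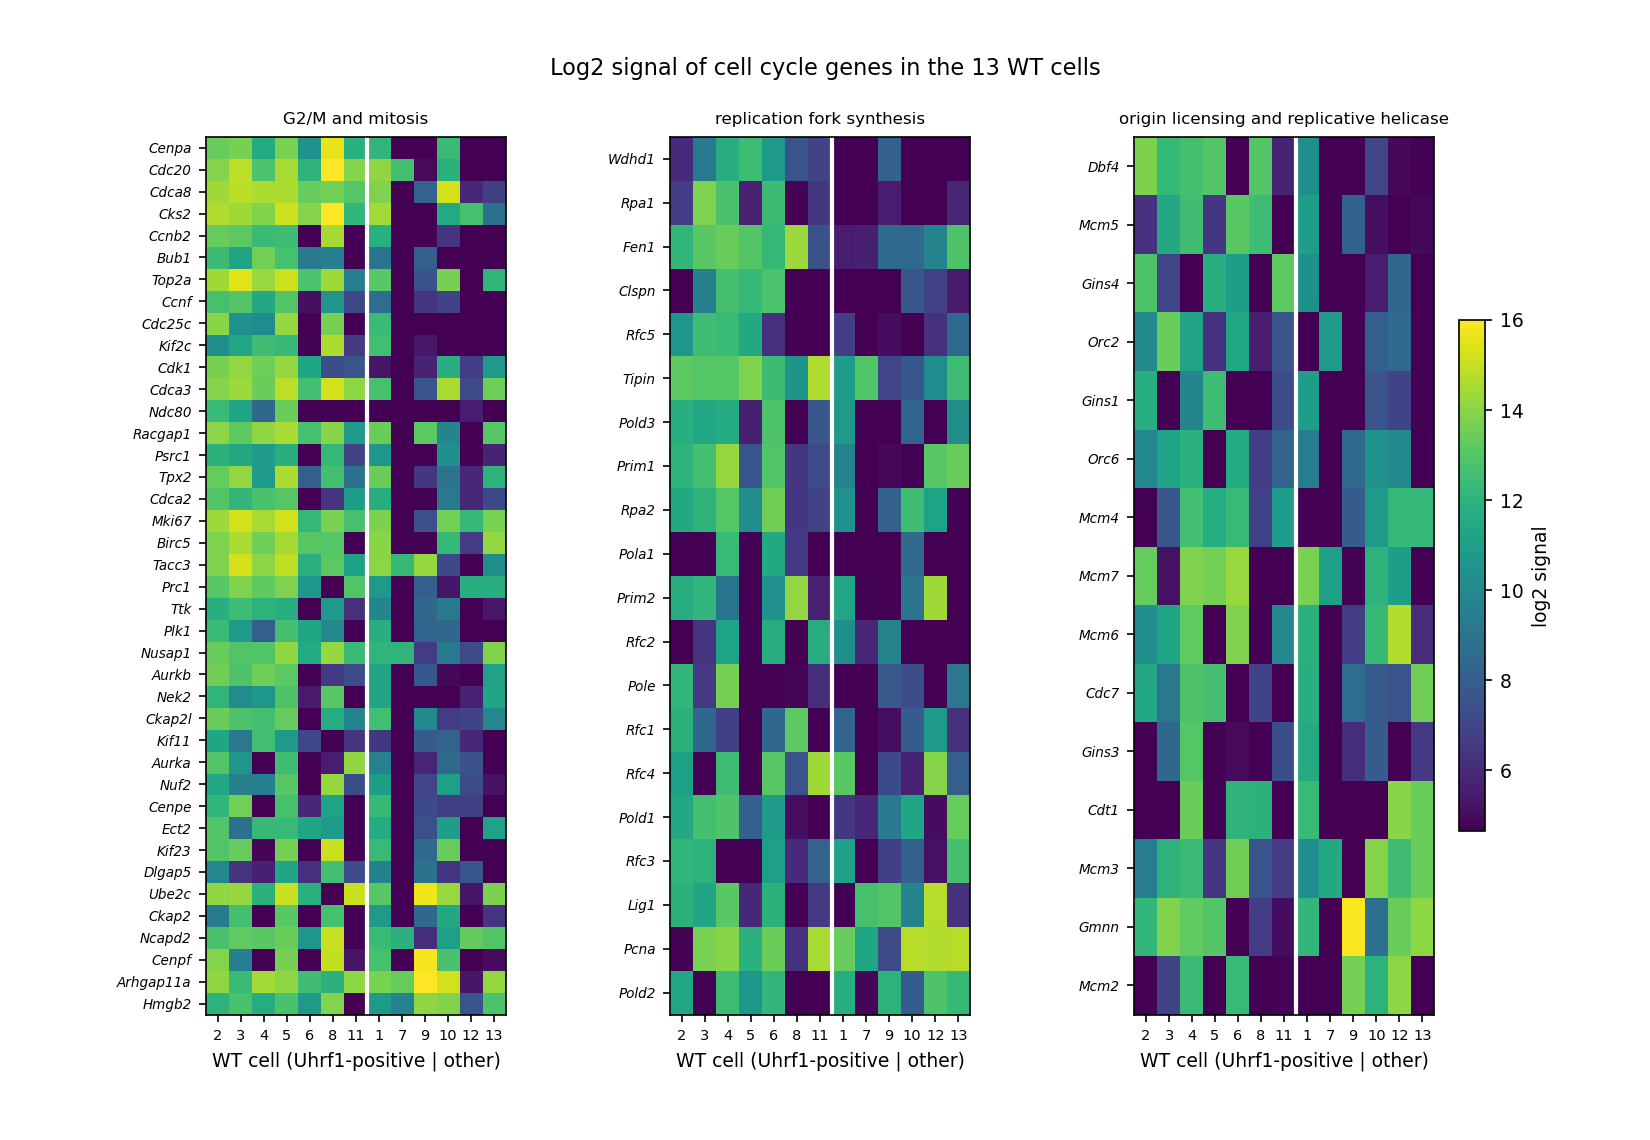
Log2 signal (colour) of the list members used (rows, sorted by difference) in the 13 WT cells (columns), Uhrf1-positive cells left and other WT cells right of the white line, and the top colour also standing for values above the scale. Mitotic genes are bright in most Uhrf1-positive cells but also in WT cell 1, while genes of origin licensing and the helicase are bright in cells of both classes.

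Origin licensing and helicase genes differed little as a list at the main Uhrf1 limit, but their median moved with the cells used. Licensing loads the Mcm2 to Mcm7 ring onto origins, and Cdc45 and the GINS proteins turn it into a working helicase. Of 20 listed genes, 15 were used, 9 with higher means in Uhrf1-positive cells (56.3% of all genes) and 6 with lower means. Of the 15, 2 were higher by at least 3 (6.86% of all genes). The median difference, 0.38, was close to that of all genes, 0.30. Members detected per cell were 3, 7 and 13 (lowest, median, highest) in Uhrf1-positive and 3, 5.5 and 8 in other WT cells. The list's median was 2.61 in the low and -1.44 in the high 18S set, 0.95 without WT cells 9 and 12, -0.26 without WT cell 4, -0.04 without WT cell 7 and -0.16 without WT cell 9. It was 1.36 without WT cell 12, whose Uhrf1 lay just under the limit. With the Uhrf1 limit at the 85th percentile it was 1.29, and at the 95th percentile 1.33.

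Within this list, kinase and ring subunits did not move together. Dbf4, the activating subunit of the origin-firing kinase Cdc7, ranged from 4.64 to 13.76 (median 12.64) in Uhrf1-positive and from 4.64 to 10.19 (median 4.77) in other WT cells. Its other probe set had the opposite sign. Dbf4 was detected in 5 and 0 cells and was at least 1.67-fold higher. This bound sets the mean of the bright class against the detection thresholds of the dim class. Here and below, such a bound is for signals raised to 25. Where the bright class has cells at this floor, it need not hold for signals without the floor. The helicase subunit Mcm5 passed the limit in 4 and 0 cells and differed by 3.16. The other ring subunits lay on either side of 0, with 0.78 for Mcm4, 0.38 for Mcm7, 0.30 for Mcm6, -1.35 for Mcm3 and -1.74 for Mcm2. The GINS subunit Gins4 (3 and 0 cells) differed by 2.93 and the origin recognition subunit Orc2 (3 and 1 cells) by 2.49. Gmnn, the inhibitor of relicensing, passed the limit in 4 and 4 cells and differed by -1.70. Cdc6, which loads the ring, was detected in 0 WT cells.

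Genes that act at the replication fork had a median difference of 1.63. Of 26 listed genes, 20 were used, 17 with higher and 3 with lower means, and 4 were higher by at least 3. Over all genes 56.3% had higher means and 6.86% were higher by at least 3. Members detected per cell were 4, 12 and 17 in Uhrf1-positive and 3, 4.5 and 10 in other WT cells. Fen1, the flap nuclease that trims Okazaki fragments, ranged from 7.46 to 14.28 (median 12.96) and from 5.51 to 12.86 (median 8.53), and was detected in 6 and 1 cells, with a difference of 3.74. The polymerase alpha partner Wdhd1 (2 and 0 cells, 4.06), the single-strand binding subunit Rpa1 (3 and 0 cells, 3.94) and the checkpoint mediator Clspn (3 and 0 cells, 3.10) were seen in few cells. Pcna, the sliding clamp, ranged in the classes from 4.64 to 14.52 (median 13.46) and from 7.23 to 14.79 (median 13.99). It was detected in 5 of 7 and 5 of 6 cells and differed by -1.48, and the polymerase delta subunit Pold2 (3 and 4 cells) differed by -1.60. Within 18S sets the list had a median of -0.012 (high) and 2.63 (low), and Clspn was -1.73 in the high 18S set.

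Nucleotide supply genes had a median near that of all genes, with opposite signs in the 18S sets. Of 16 listed genes, 14 were measured and 10 used, 8 with higher means (56.3% of all genes) and 2 with lower means. The median was 0.36 (-1.42 in the high and 1.70 in the low 18S set). Rrm1, part of the ribonucleotide reductase that makes deoxynucleotides, was detected in all 7 Uhrf1-positive and all 6 other WT cells. It ranged from 11.08 to 14.21 and from 11.60 to 14.08, a difference of 0.25, and was named after its values were seen. Rrm2, the other subunit of this enzyme, was detected in 4 and 3 cells (2.21), and thymidine kinase 1 (Tk1) in 2 and 0 cells (3.96). Umps and Ctps, of pyrimidine synthesis, differed by 1.80 and 1.00, and the purine enzymes Gart and Paics by -0.61 and -1.50.

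Partners of Uhrf1 in chromatin copying varied from gene to gene. Of 15 listed genes of chromatin assembly and DNA methylation, 13 were measured and 10 used. Higher means were found for 7 (56.3% of all genes) and lower means for 3, with a median of 1.34. Dnmt1, which Uhrf1 recruits, ranged from 5.68 to 13.44 (median 13.13) in Uhrf1-positive and from 5.03 to 12.71 (median 8.35) in other WT cells, with 5 and 3 cells detected and a difference of 2.82. That gap was within the SDs over cells, 3.18 and 3.50. Asf1b, a histone chaperone, was detected in 4 and 1 cells (3.86), the histone chaperone Nasp in 5 and 4 (1.48) and the deacetylase Hdac1 in 4 and 3 (1.40). Usp7, a deubiquitinase that binds Uhrf1, was detected in 2 and 4 cells (-0.88), and Slbp, which binds histone mRNA, in 4 and 4 (-0.41). Opposite signs were found in 5 of 6 other probe sets of Usp7, 2 of 2 of Slbp and 3 of 4 of Nasp. The list's median was 0.43 without WT cells 9 and 12 and 0.31 without WT cell 9 alone.

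Repair and checkpoint genes of S phase held the only list member whose classes did not overlap. Of 20 listed genes, 17 were measured and 12 used, 11 with higher means (56.3% of all genes) and a median of 1.51. Fanci, a Fanconi anaemia protein that acts at crosslinked DNA, ranged from 9.83 to 13.38 (median 10.72) in Uhrf1-positive cells and from 4.64 to 7.11 (median 5.37) in the others. Detected in 5 and 0 cells, it was at least 2.82-fold higher, but its other probe set had the opposite sign. Brca1 (4 and 1 cells) differed by 3.00 and the helicase Blm (2 and 0 cells) by 2.67, while Brca2 differed by 0.08. The mismatch repair gene Msh6 passed the limit in 0 and 3 cells and differed by -2.54. Within 18S sets the list had a median of -1.87 (high) and 3.37 (low), and Brca1 was -2.26 in the high 18S set.

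E2F factors and G1/S regulators had a median difference of 2.46. Of 22 listed genes, 13 were used, 11 with higher means (56.3% of all genes) and 2 with lower means. Of the 13, 4 were higher by at least 3 (6.86% of all genes). Members detected per cell were 4, 6 and 9 in Uhrf1-positive and 1, 3.5 and 4 in other WT cells, so that the ranges met only at 4. The higher members were the atypical repressors E2f7 (3 and 0 cells, 3.53) and E2f8 (4 and 0 cells, 3.48), the inhibitor of the anaphase-promoting complex Fbxo5 (4 and 1 cells, 3.51) and cyclin A2. Ccna2, the cyclin of S phase and G2, ranged from 7.30 to 14.90 (median 13.24) and from 4.64 to 13.99 (median 8.29), with 5 and 3 cells detected and a difference of 3.10. The activator E2f1 (2 and 2 cells, -1.41) and the phosphatase Cdc25a (0 and 2 cells, -2.06) had lower means. Cyclin E genes, which peak at the G1/S boundary, were seldom detected, with Ccne1 detected in 0 WT cells and Ccne2 in 1. Its median was 1.02 in the high 18S set, with Fbxo5 at -0.74 and E2f8 at -1.61.

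G1 cyclins and inhibitors of the cell cycle gave no common direction. Ccnd1, the D cyclin that drives retinal progenitors, passed the detection limit in all 13 WT cells, from 14.61 to 15.30 in Uhrf1-positive and from 13.93 to 16.87 in other cells, a difference of -0.33. Ccnd3, another D cyclin, was detected in 4 and 0 cells (4.91), but both of its other probe sets had the opposite sign. The kinase Cdk6 (4 and 2 cells) differed by 2.53 and Mycn by -0.66. Of 15 genes of cell cycle exit, 11 were used, 7 with higher means (56.3% of all genes) and 4 with lower means, and the median was 0.36. Cdkn2d, the kinase inhibitor p19, was detected in 5 and 0 cells (10.19 to 13.32 against 4.64 to 10.88) and was at least 3.46-fold higher, and its relative Cdkn2c was detected in 4 and 1 cells (2.98). Cdkn1a, the p53-induced inhibitor p21, was detected in 0 and 2 cells (-2.30), and Gadd45g in 1 and 2 (-2.85).

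**Figure D3:**
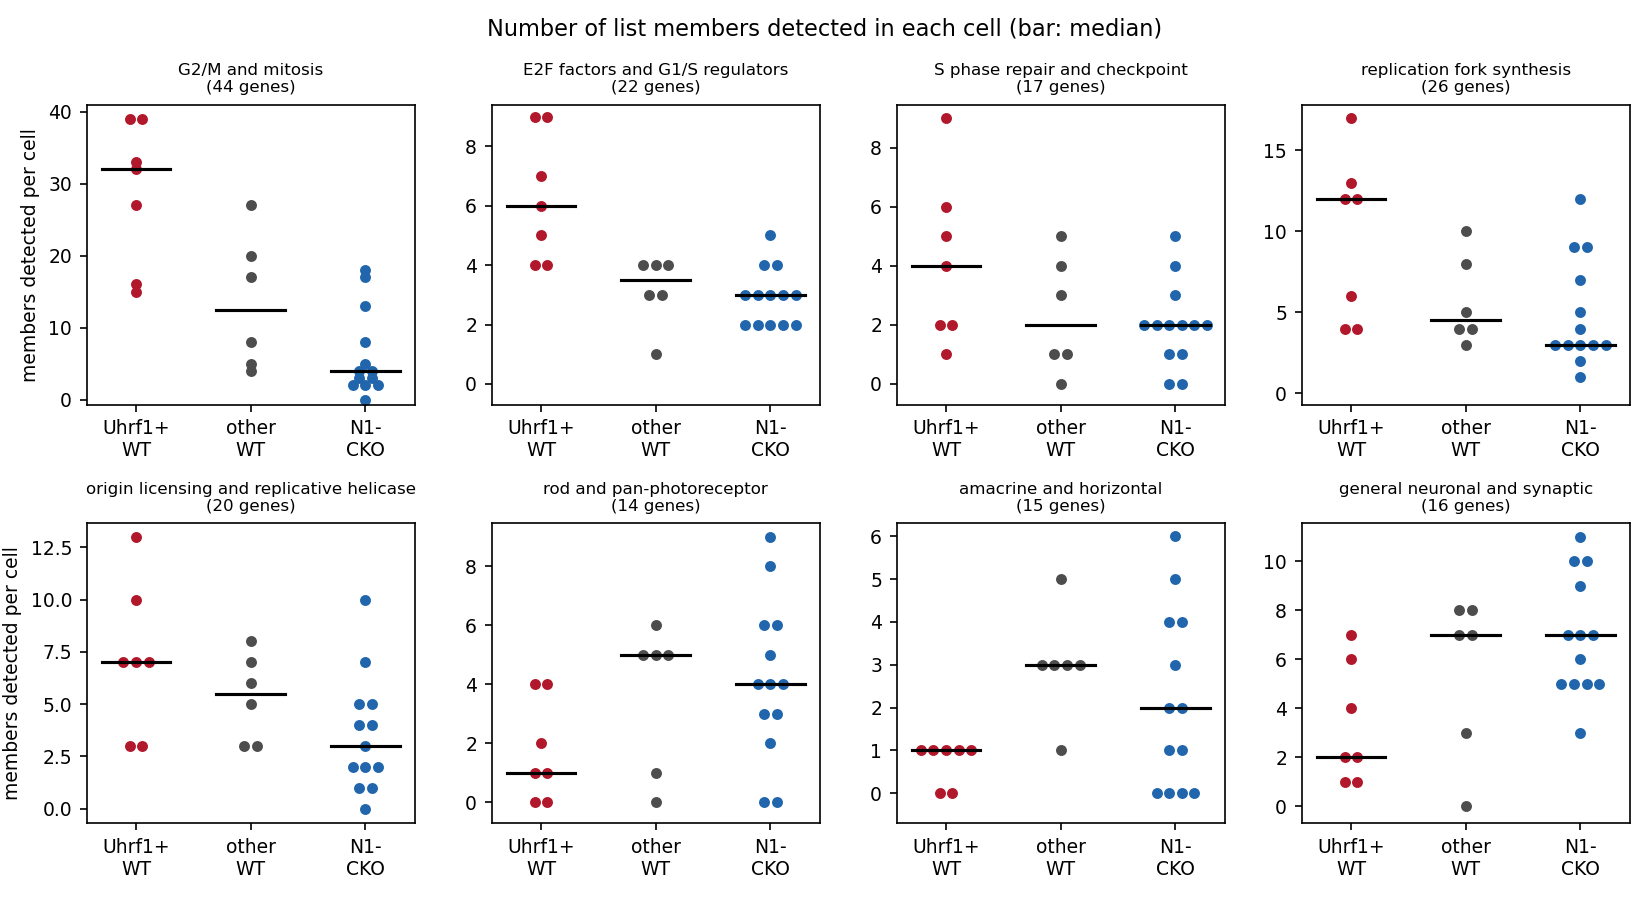
Number of measured list members detected in each cell for 8 lists, with Uhrf1-positive WT cells, other WT cells and N1-CKO cells side by side and the median as a bar. Mitotic members reach medians of 32, 12.5 and 4 in these classes, while rod and pan-photoreceptor members have medians of 1, 5 and 4.

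Notch receptors and effectors had counts near those of all genes, and Notch1 itself hardly differed. Of 15 listed genes, 13 were used, 9 with higher and 4 with lower means and 1 higher by at least 3, against 56.3% and 6.86% of all genes, with a median of 1.93. Hes1, the repressor that holds progenitors undifferentiated, was detected in 5 of 7 Uhrf1-positive cells (4.64 to 12.74, median 11.33) and in 1 of 6 others (4.64 to 9.63, median 8.81). Its mean differed by 2.41. It was named after its values were seen, as were Notch1 and Id3. Nrarp, a feedback inhibitor of the pathway, was detected in 3 and 0 cells (3.28) and Hes5 in 5 and 3 (2.82). Notch1 passed the limit in 5 and 5 cells and differed by 0.17, and Id3 in 6 and 6 cells (-0.90). Rbpj, through which Notch acts on DNA, differed by -0.93 and Id2 by -0.94. Within 18S sets the list had a median of -0.80 (high) and 2.78 (low).

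Progenitor and glial lists had medians between those of all genes and of the Notch list. Of 17 retinal progenitor genes, 14 were used, 9 with higher means (56.3% of all genes) and 2 higher by at least 3 (6.86% of all genes), with a median of 1.25. Foxn4, a forkhead factor of progenitors, was detected in 5 of 7 Uhrf1-positive cells (4.64 to 12.89, median 12.00) and in 1 of 6 others (4.64 to 11.28, median 5.16), and differed by 4.61. The stem cell factor Sox2 (6 and 3 cells) differed by 3.04, the homeobox gene Six6 by -1.13 and the Wnt modulator Sfrp2 by -0.90. Of 13 Müller glia genes 9 were used, 7 with higher means, with a median of 1.73, among them Dkk3 (2.76) and the retinoid carrier Rlbp1 (2.37). Slc1a3 (-0.46) and Gpr37 (-1.51) were the lowest. The progenitor median was -0.10 in the high and 1.63 in the low 18S set. Proneural factors and Notch ligands had a median of -0.24 over 9 used genes, from the ligand Dll1 (3 and 0 cells, 2.32) and the fringe Mfng (1.87) to Sox11 (-2.58) and Neurod1.

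The 6 used rod and pan-photoreceptor genes had lower means in Uhrf1-positive cells, within wide ranges. The list holds 17 genes, of which 14 were measured. Lower means were found in 43.7% of all genes. Of the 6, 2 were lower by at least 3, against 3.4% of all genes, with a median of -2.39. Members detected per cell were 0, 1 and 4 in Uhrf1-positive cells and 0, 5 and 6 in the others, and WT cells 6 and 11 carried 4 members each together with Uhrf1. Prdm1, which holds photoreceptor precursors from the bipolar fate, was detected in 0 of 7 and 4 of 6 cells (4.64 to 11.22 against 4.64 to 15.94) and was at least 1.75-fold lower. It was 0.90, the opposite sign, in the low 18S set. Otx2, a homeobox factor that photoreceptors need, was seen in 3 and 4 cells (-3.33), the rod factor Nrl in 4 and 5 (-2.07) and the rod arrestin gene Sag in 1 and 1 (-0.78). Neurod1, a bHLH factor that acts in photoreceptor and amacrine differentiation, was detected in 3 of 7 Uhrf1-positive cells (4.64 to 15.90, median 9.93) and in 6 of 6 others (12.02 to 16.16, median 13.18), a difference of -3.71. The list's median was -1.06 in the low and -2.10 in the high 18S set, and -0.29 with Uhrf1 at the 95th percentile. Over all measured members, without the detection filter, it was -0.75.

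Amacrine, horizontal and general neuronal genes were lower as well. Of 15 amacrine and horizontal genes, 5 were used, with a median of -1.82, and members detected per cell were 0, 1 and 1 against 1, 3 and 5. Meis2, a homeobox gene of amacrine cells, ranged from 4.64 to 10.83 (median 6.86) in Uhrf1-positive and from 10.16 to 16.07 (median 12.39) in other WT cells. It passed the limit in 1 and 5 cells and differed by -4.95. Gad2, which makes the transmitter GABA, was detected in 0 and 3 cells (-3.77), Tfap2b in 2 and 3 (-0.79) and the calcium-binding protein gene Calb2 in 2 and 1 (0.39). The amacrine list's median was -0.02 with Uhrf1 at the 95th percentile and -0.79 without the detection filter.

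General neuronal and synaptic genes had 10 lower and 3 higher means among 13 used, and 3 were lower by at least 3, with a median of -1.36. Over all genes 43.7% had lower means and 3.4% were lower by at least 3. Members detected per cell were 1, 2 and 7 in Uhrf1-positive and 0, 7 and 8 in other WT cells. The long noncoding RNA Meg3 was detected in 0 and 3 cells (-4.35) and in 12 of 13 N1-CKO cells, and the neuronal stathmin Stmn2 in 0 and 3 (-3.66). Map2 and Gap43 differed by 1.16 each. This median did not hold in the high 18S set (0.048, with Meg3 at 0.048) or with Uhrf1 at the 95th percentile (0.30). It was -2.33 in the low 18S set, -2.26 without WT cells 9 and 12, and -0.23 when the cells with a Gapdh ratio over 3 were left out. Without the detection filter it was -0.68.

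**Figure D4:**
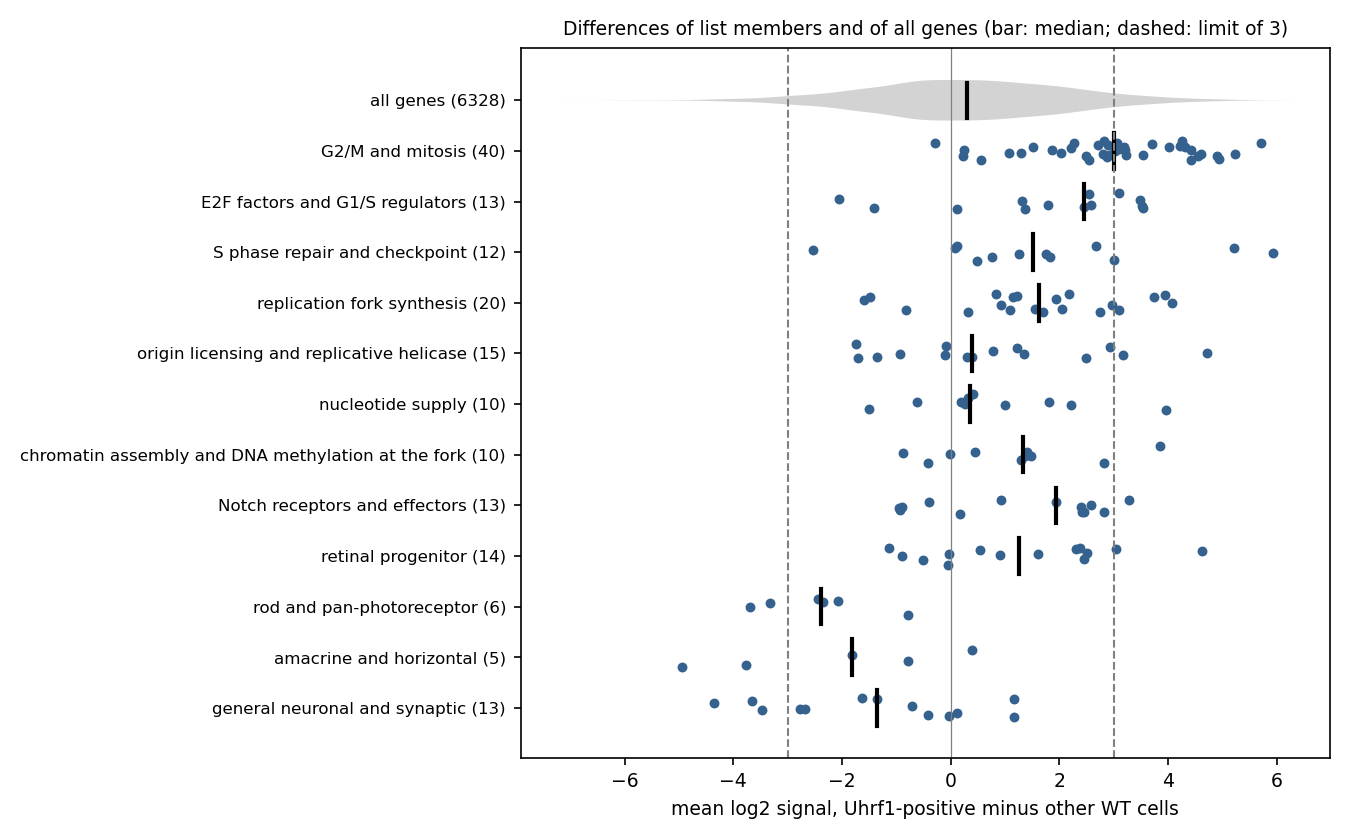
Difference in mean log2 signal (Uhrf1-positive minus other WT cells) of each list member used (points) with the list median (bar), under the distribution of all 6328 genes (grey, median 0.30), with dashed lines at the limit of 3 in either direction. G2/M and mitosis lies highest (median 3.01), and rod and pan-photoreceptor genes lowest (median -2.39).

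The 15 highest single differences mixed cell cycle genes with genes of other roles. Besides Fanci, Cenpa, Cdc20 and Cdkn2d, they held Pbk, a mitotic kinase detected in 7 and 3 cells (5.35), and Polg, the mitochondrial DNA polymerase (4 and 0 cells, at least 2.14-fold higher). B3glct, a glucosyltransferase, stood highest (5 and 0 cells, 6.30, at least 2.85-fold). The matrix genes Fn1 (6 and 0 cells) and Lamb2 (5 and 0 cells) were at least 3.35-fold and 2.43-fold higher, and the kinase Pak4 (5 and 0 cells) at least 1.44-fold. Dph3 (7 and 1 cells, 5.51), Thap12 (7 and 1 cells, 5.05), the splicing protein gene Snrpb2 (7 and 2 cells, 5.36) and Arglu1 (7 and 3 cells, 5.42) were detected in every Uhrf1-positive cell. Arglu1 and Snrpb2 were also detected in 12 and 11 of 13 N1-CKO cells and Thap12 in 6, so they do not follow Uhrf1 across the series. Of these 15 genes, Cenpa alone was detected in no N1-CKO cell.

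Among the 15 lowest, Abl2 stood apart. Abl2, a tyrosine kinase that acts on the actin cytoskeleton, ranged from 4.64 to 7.33 in Uhrf1-positive cells and from 10.35 to 14.58 in the others. It was detected in 0 of 7 and 6 of 6 cells and was at least 4.20-fold lower, and 6 of 13 N1-CKO cells showed it. The neuronal genes Rundc3a (0 and 4 cells, at least 2.48-fold lower) and the granin Chgb (1 and 5 cells, -6.02) came next, and were detected in 9 and 10 N1-CKO cells. Tacc2 (1 and 6 cells, -5.99), the endothelin-converting enzyme Ece1 (1 and 5 cells, -5.74), the ubiquitin ligase subunit Vhl (1 and 5 cells, -5.33), the heme oxygenase Hmox2 (1 and 5 cells, -4.81) and the membrane-bending protein gene Bin1 (1 and 3 cells, -4.97) were further examples. Tmed8, Shroom2, Arhgef25, Zfp184, Tnip1 and Pcyt2 were detected in 0 and 4 cells each, and Meis2 completed the group. These 30 genes were chosen for their differences in the same cells, so their sizes are a description.

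Few genes separated the classes completely. In 9 of 6328 genes (0.142%) the lowest Uhrf1-positive cell exceeded the highest other WT cell, and in 4 (0.0632%) the reverse held, together 0.205% of genes. Besides Fanci, Polg and Abl2, and named after their values were seen, the higher ones were Mdm1, Tanc1, Fbxo3, Klf13, Kpna2, Mlec and Lrrc4c. Kpna2, an importin of dividing cells, passed the limit in 7 and 1 cells and differed by 4.47, and Klf13 in 7 and 1 cells by 4.48. The lower ones were Scarb2, Smarca4 and Copa, of which the chromatin remodeller Smarca4 passed the limit in 4 and 6 cells and differed by -3.36.

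The 7 Uhrf1-positive cells were not alike among themselves. WT cell 4 carried the most replication transcripts, with 13 of 20 licensing and helicase genes and 17 of 26 fork genes detected, and 27 of 44 mitotic genes. WT cell 5 was the opposite case, with 39 mitotic genes, 7 licensing and helicase genes and 6 fork genes. WT cell 2 had 39 mitotic and 12 fork genes, and WT cell 3 had 33 and 12. WT cell 6 had 15 mitotic and 13 fork genes, together with 4 rod and pan-photoreceptor genes and 6 general neuronal genes. WT cells 8 and 11, both in the high 18S set, had 3 licensing and helicase and 4 fork genes each, with 32 and 16 mitotic genes. WT cell 11 also showed 4 photoreceptor, 4 cone and 7 general neuronal genes.

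The other 6 WT cells also differed among themselves. WT cell 1 had 27 mitotic genes and 11 of 16 progenitor genes but an Uhrf1 signal of 48.2. It also had 7 general neuronal and 3 amacrine and horizontal genes. WT cell 12 had 8 licensing and helicase, 10 fork and 5 photoreceptor genes but 4 mitotic genes, and its Uhrf1 lay just under the limit. This cell also had 8 of 13 Müller glia genes. WT cells 10 and 13 had 20 and 17 mitotic genes beside 5 and 6 photoreceptor genes and 7 and 8 general neuronal genes. WT cell 7 had 5 mitotic, 3 fork, 5 amacrine and horizontal and 8 general neuronal genes, and WT cell 9 had 8 mitotic and 5 photoreceptor genes.

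Set beside N1-CKO cells, in which Uhrf1 was detected in none of 13, the other WT cells had a higher mean mitotic signal. Averaged over members, it was 8.26 ± 2.16 in other WT cells and 6.73 ± 1.45 (SD, 13 cells) in N1-CKO cells, a gap within the spread between cells, and the medians of members detected were 12.5 and 4. These averages use genes detected in at least 2 WT cells, a choice in which N1-CKO cells had no part. Gapdh ratios ran from 1.46 to 245 (median 2.67) in N1-CKO cells and reached 3.26 in other WT cells. The part of either point in the gap was not tested. For fork genes the averages were 7.84 ± 1.09 and 7.32 ± 1.21 and for rod and pan-photoreceptor genes 10.57 ± 3.57 and 10.54 ± 3.02. Rrm1, bright in all WT cells of both classes, was detected in 5 of 13 N1-CKO cells, and Neurod1 in all 13.

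Markers of cells outside the neural retina were rare. Of the 8 microglia, 4 astrocyte, 7 pigment epithelium and 2 measured erythroid genes, none was detected in a Uhrf1-positive cell, and at most 1 of a list in another WT cell. Of 9 endothelial and mural genes, Uhrf1-positive cells had 0 to 1 detected and other WT cells 0 to 2. Of these Kdr, the VEGF receptor that retinal progenitors also express, was detected in 6 and 3 cells (3.41, but -0.62 in the high 18S set). Markers of other neurons were thinly seen, with a median difference of -1.04 over 2 used bipolar genes, -0.09 over 2 ganglion cell genes and -0.29 over 3 cone genes. They ranged from Ebf3 (1.68) and Ccdc136 (1.26) to Prkca (-2.10) and Nefm (-1.86), with Pcp2 at 0.02, Gngt2 at -0.29 and Gnb3 at -0.31. Immediate early genes, which dissociation can induce, had higher means for all 4 used members, against 56.3% of all genes. These were Fos (2.92), Dusp1 (2.77), Ier2 (0.89) and Egr1 (0.73). Housekeeping genes had a median of 0.30 over 7 used members, from Hprt (0.96) and Ywhaz (0.78) to Actb (-0.27) and Eef1a1 (-0.87).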

How the data were processed

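Each deposited file gives the linear intensity of every probe set. The submitters' processing notes name MAS5 for this step, and its version was not given in the labels. The 2% trimmed mean was 500.0 on every array, so total RNA per cell cannot be compared. Of 45101 probe sets, 34945 had 1 gene symbol in GEO's platform annotation, 932 had several and were left out, 64 were controls and 9160 were unnamed, which left 18193 genes. Symbols were looked up by Entrez number in RefSeq (GRCm38.p6), and 0 changed.

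Signals were floored at 25 and log2 was taken. Each gene was read from the probe set with the highest mean over 26 cells. Detection meant the 90th percentile of the cell's array over probe sets that are not controls. Of 121 named genes, 29 had another probe set of opposite sign. Genes were named by rule: those with the 15 largest differences in each direction, if at least 4 WT cells showed them and their share of detected cells differed the same way, the markers Uhrf1, Mcm3 and Lig1, the 4 highest and 2 lowest used members of each of the 6 replication and G1/S lists and of the G2/M list, and the 2 highest and 2 lowest of each other list. Of these, 1 gene is not reported here. Others are given as cases or were named after their values were seen. Members and lists were chosen with earlier results of these data known. The 26 lists hold 382 genes, of which 24 were not analysed here. The 18S sets were split at the largest gap of the 5' 18S control. Python 3.11.15, pandas 2.3.3, numpy 2.4.6 and scipy 1.17.1 were used. The difference of means and its limit of 3 were tried on simulated normal values. No floor or detection filter was applied to these, so those steps were not checked. Alternatives changed the floor, probe sets, averaging, normalization, filter, Uhrf1 limit and cells used. The number of arrays limits the precision.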

Additional observations from a re-analysis of the deposited data

Results flagged for a closer look

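Of 38 groups of values examined, 3 held a cell far from the others of its group. Cells are not independent replicates and some values lie at the floor, so this count is a description only. In Uhrf1-positive cells, the mean log2 signal over G1 cyclins and kinases was 9.77 in WT cell 11, below the other 6 cells, and the Gapdh ratio was 3.24 in WT cell 3, above the others. Among the other WT cells, the log2 signal of Uhrf1 was 9.55 in WT cell 12, above the others and just under its array's limit. The Uhrf1 values also chose the classes.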

How the results depend on the processing

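No paired analysis was possible because each WT cell lies in 1 class only and no test was made. Over 13 alternatives, 145 of 156 list medians were counted as moving by less than the spread between cells. Left out of that count, whatever their move, were 6 that changed sign from a main median of at least 1 in size. In all, 8 of the 156 changed sign. Of 1559 differences of named genes, 1509 were counted as moving by less than that spread, and 118 changed sign. Left out of the 1509 were 7 that changed sign from a main difference of at least 3 in size. The G2/M median was positive and the rod and pan-photoreceptor median negative in each. Genes higher and lower by at least 3 numbered 164 and 74 with a floor of 100, 686 and 389 without a floor, 180 and 93 with each gene averaged over its probe sets, 1091 and 587 with medians over cells, 844 and 915 in the high 18S set, and 905 and 522 in the low 18S set. With Uhrf1 at the 95th percentile 252 genes were higher and the general neuronal median was 0.30. Without WT cells 9 and 12, an alternative chosen after seeing the data, 364 genes were lower. Without the filter on detection the medians were 1.10 for E2F, 0.67 for repair, 0.86 for chromatin, 0.85 for progenitor and 0.60 for licensing and helicase genes. They were -0.75 for rod, -0.79 for amacrine and -0.68 for general neuronal genes, and 2.95 for G2/M. With cells of a Gapdh ratio of at most 3 (6 against 5 cells) the medians were 0.95 for fork, 0.42 for chromatin, 0.46 for repair, 0.89 for Notch, 0.39 for progenitor, -3.74 for rod, -0.77 for amacrine and -0.23 for general neuronal genes. With Uhrf1 at the 95th percentile they were 0.63 for chromatin, 0.79 for repair, 1.29 for E2F, 0.69 for Notch and 0.39 for progenitor genes. In the high 18S set (2 against 3 cells) the medians were -1.42 for nucleotide supply, -1.44 for licensing and helicase, -0.012 for fork, -1.87 for repair, 1.02 for E2F, -0.80 for Notch, -0.10 for progenitor and 0.048 for general neuronal genes, and the differences were -1.73 for Clspn, -2.26 for Brca1, -0.74 for Fbxo5, -1.61 for E2f8, 0.048 for Meg3 and -0.62 for Kdr. In the low 18S set (5 against 3 cells) the medians were 2.61 for licensing and helicase and 3.37 for repair, and Prdm1 differed by 0.90. The cause of these changes was not tested.

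Leaving out 1 cell at a time gave 407 to 660 higher genes (most without WT cell 1) and 212 to 281 lower ones. Medians ranged from -0.26 (without WT cell 4) to 1.36 for licensing and helicase, 1.11 to 2.16 for fork, 0.08 (without WT cell 2) to 1.01 for nucleotide supply, 0.31 (without WT cell 9) to 1.66 for chromatin, 0.82 (without WT cell 7) to 2.06 for repair, 1.60 (without WT cell 13) to 2.86 for E2F, 2.41 to 3.67 for G2/M, 0.85 (without WT cell 9) to 2.29 for Notch, 0.59 (without WT cell 7) to 1.60 for progenitor, -3.65 (without WT cell 7) to -1.79 for rod, -2.59 to -0.77 (without WT cell 7) for amacrine, -2.12 (without WT cell 11) to -0.66 (without WT cell 13) for general neuronal genes, and 0.15 to 0.47 for all genes. With 7 and 6 cells of unknown animals, and many values at the floor, differences of single genes are imprecise.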
